A study of Mus musculus with 2 samples.

Results

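Of the 10486 regions of acetylated histone H3 (H3ac) that were called in HL-1 cells, 1138 (10.9%) were broad domains, that is, peaks of 1000 bp or more that started at or past position 3100000 of their chromosome. These domains were chosen by their width and their start, and both are therefore given here as a description, with no test. HL-1 is a mouse line of atrial muscle cells that beats in culture, and the cells were harvested at their highest density. The labels name no treatment, allele or age. Chromatin immunoprecipitation and sequencing was done with 1 library against H3ac and 1 library against Srf (serum response factor), whose list held 2190 peaks. No value has a replicate check, no conditions are compared, and the lists give positions without read counts, so the depth is unknown. The label of cardiomyocytes was not checked, because peak positions hold no measure of expression. Positions are in mm9, as the lists give them.

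Acetyl groups are placed on the lysines of histone H3 by histone acetyltransferases and taken off by histone deacetylases. The mark loosens the hold of the histone tail on DNA, is read by bromodomain proteins, and is found at active promoters and enhancers. Wide acetylated stretches are known from the starts of strongly transcribed genes. Srf is a MADS-box factor that binds the CArG box and works with cofactors of the myocardin family and with ternary complex factors. In heart muscle it is known as a regulator of genes for the contractile apparatus. An Srf peak inside a broad domain is therefore a place where this factor was found on widely acetylated chromatin in the same cell line.

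The domains had a median width of 1493 bp, with quartiles of 1232.25 and 1832.75 bp, and 90% of them were at most 2237.3 bp wide. The widest reached 6533 bp. Together they covered 1.84 Mb, which was 45.4% of the 4.05 Mb under all H3ac peaks. The 9315 narrower H3ac peaks past the same start had a median width of 173 bp. No break in the widths marked the threshold: 80 peaks were at least 950 and under 1000 bp wide, and 66 were at least 1000 and under 1050 bp wide. The 3 narrowest members, on chromosomes 1, 7 and 11, measured 1000 bp, and the 3 widest peaks left out by width measured 999, 996 and 996 bp. None of these 6 overlapped an Srf peak, where 5.25% of all H3ac peaks did.

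The limit on the start left out 7 H3ac peaks of 1000 bp or more, 6 of them on chromosome 11 and 1 on chromosome 9. Beside 5.25% of all H3ac peaks, 6 of these 7 overlapped Srf peaks, 33 in all. The 3 widest lay on chromosome 11 and measured 7539, 3626 and 2392 bp, with 13, 8 and 4 Srf peaks. The last of the 7 began at 3086150, and the member nearest to the limit began at 3101751 on chromosome 11. Each of the 3 widest overlapped more Srf peaks than any member did, since no member overlapped more than 3.

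**Figure D1:**
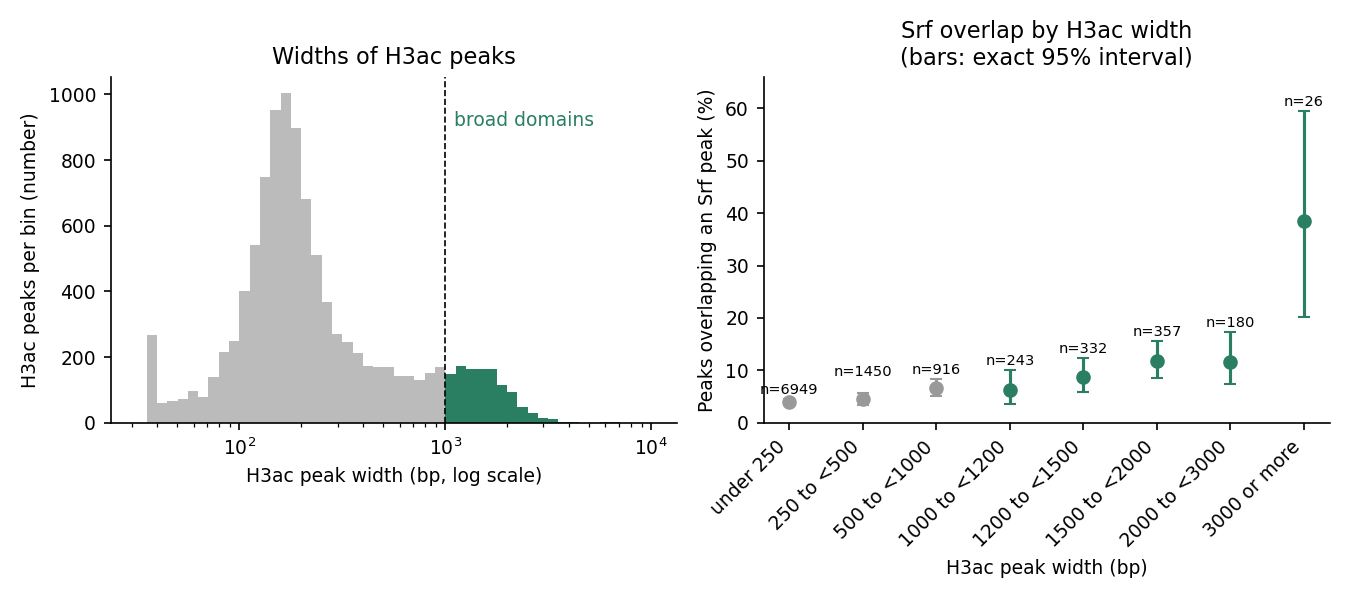
Left, number of H3ac peaks by width (bp, log scale), with the 1138 broad domains in green to the right of the dashed line at 1000 bp. Right, share of H3ac peaks in each width class that overlapped an Srf peak, as points with exact 95% intervals and the number of peaks above each. The share was 4.01% in the narrowest class and 38.5% in the 26 domains of 3000 bp or more.

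Broad domains lay on each of the autosomes and on the X chromosome. Chromosome 8 held 105 and chromosome 11 held 99, and the X chromosome held 18. Per megabase between the first and the last H3ac peak of a chromosome, chromosome 11 had 0.835 domains, chromosome 8 had 0.821 and chromosome 19 had 0.793, against 0.113 on the X chromosome and 0.248 on chromosome 13. Much of this order followed the number of H3ac peaks of any width. Domains made up 8.37% of the H3ac peaks on the X chromosome (exact 95% interval 5.04% to 12.9%) and 13.2% on chromosome 3 (10.3% to 16.6%), the lowest and the highest shares. Chromosome 8, at 13.1% (10.9% to 15.7%), was close to the latter. The intervals of all chromosomes overlapped, and no ranking among them was tested. Intervals here and below are Clopper-Pearson intervals for shares and cover counting error only. They treat peaks as independent, although peaks cluster along the genome.

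Within chromosomes the domains were unevenly spread. Of the 1744 bins of 1 Mb that held an H3ac peak past the limit on the start, 695 held a broad domain, and 464 of these held only 1. At the other end, 19 bins held 5 or more each and together 128 domains (11.2%). The 3 bins with the most were all on chromosome 8. From 122 to 123 Mb lay 11 domains among 50 H3ac peaks, from 124 to 125 Mb lay 11 among 49, and from 127 to 128 Mb lay 10 among 46. In the 6 Mb from 122 to 128 Mb there were 52 domains, and 18 of them overlapped an Srf peak. Over all chromosomes an Srf peak overlapped 10.3% of domains and 5.25% of all H3ac peaks. The 3 bins just named held 16, 34 and 25 Srf peaks, and the share of narrower peaks in this stretch was not counted. The emptiest stretch was on the X chromosome, where 43.6 Mb after position 103383622 held no domain.

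**Figure D2:**
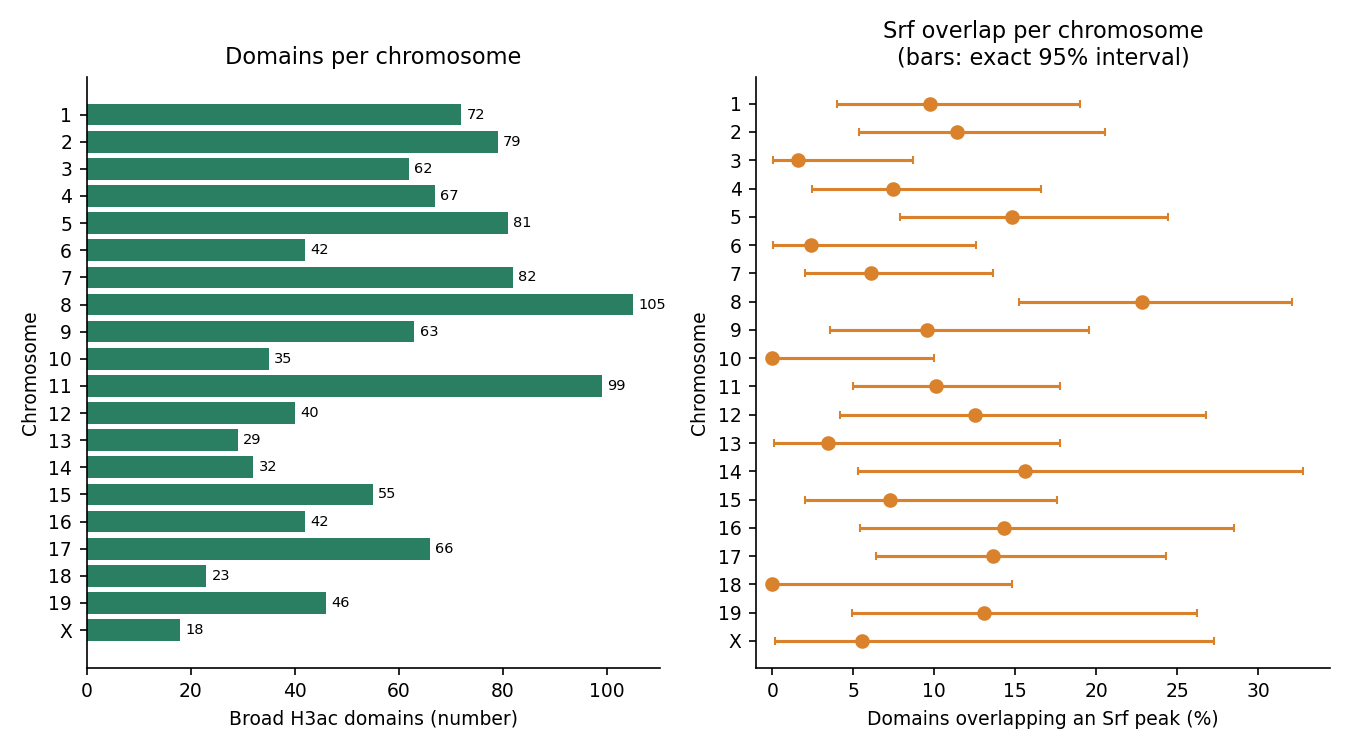
Left, number of broad H3ac domains on each chromosome. Right, share of these domains that overlapped an Srf peak, as points with exact 95% intervals. Chromosome 8 was highest in both panels, with 105 domains and 22.9%, and chromosomes 10 and 18 had no domain with an Srf peak.

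Most broad domains had no other broad domain within 100000 bp. Their spacing was not compared with that of an equal number of narrower peaks. The median gap from a domain to the next broad domain was 271575 bp (95% interval 233827 to 328571 bp), with quartiles of 80241 and 1169574.5 bp. Only 62 domains (5.45%) had another within 10000 bp, and 319 (28.0%) had one within 100000 bp. Of the 1138, 834 (73.3%) had one within 1000000 bp. The gap to the nearest H3ac peak of any width was far shorter, with a median of 28011.5 bp (25212 to 31931 bp). Narrower H3ac peaks had nearly the same median gap to their nearest H3ac peak, 26815 bp (25955 to 27927 bp).

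The wider surroundings of domains and narrower peaks were also close. A domain had a median of 2 other H3ac peaks within 100 kb of its edges (quartiles 1 and 5), and a narrower peak also had 2 (quartiles 1 and 4). No other H3ac peak lay within 100 kb of 228 domains (20.04%), and the same held for 17.6% of narrower peaks. Another broad domain lay within 100 kb of 28.0% of the domains (25.4% to 30.7%) and of 25.3% of the narrower peaks (24.5% to 26.2%).

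Gaps of up to 2000 bp joined domains only in pairs, and there were 6 such pairs. The pair with the longest span lay on chromosome 5 from 124477390 to 124482455, where domains of 1439 and 1778 bp were 1848 bp apart. Another on chromosome 8 from 124803880 to 124808464 had domains of 2012 and 1510 bp, a gap of 1062 bp and 3 overlapping Srf peaks. The next, on chromosome 17 from 23810427 to 23814583, had domains of 1327 and 1475 bp and no Srf peak. The closest pair was on chromosome 11 from 77325996 to 77329711, where domains of 1696 and 1995 bp were separated by 24 bp, the shortest gap in the H3ac list. Apart from the pair on chromosome 8, none of the 6 pairs overlapped an Srf peak, where 10.3% of all domains did.

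The most solitary domain was on chromosome 14 from 105575609 to 105577029 (1420 bp), with no other broad domain within 30227814 bp. A domain on chromosome 1 from 16094646 to 16096693 (2047 bp) was 17629503 bp from the next. It was solitary only among broad domains, since an H3ac peak of 91 bp lay 502 bp away. On chromosome 14 the domain from 8650380 to 8651577 (1197 bp) came first on its chromosome and was 12828937 bp from the next. None of these 3 overlapped an Srf peak, where 10.3% of all domains did.

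Narrower H3ac peaks flanked a minority of the domains. Within 2000 bp, 130 of 1138 domains had a narrower H3ac peak, which is 11.4% (9.63% to 13.4%), beside 10.9% of all H3ac peaks. The flank was on 1 side in 122 domains and on both sides in 8. Of the 138 flanking peaks 64 lay on the side of the lower position and 74 on the other. The flanking peaks were 38 to 984 bp wide, with quartiles of 129.75 and 266.25 bp and a median of 172 bp, nearly that of all narrower peaks. The median width was 1564 bp for flanked domains and 1483 bp for the others. Srf peaks overlapped 16 of the 130 flanked domains (12.3%, interval 7.20% to 19.2%) and 101 of the 1008 others (10.02%, 8.24% to 12.04%), and these intervals overlap.

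Measured between edges, gaps beside domains were more often short than gaps between narrower peaks. Where an edge lies depends on the width by which domains were chosen, and distances between midpoints were not compared. The contrast is therefore a description only. Of the gaps up to 2000 bp between a domain and a narrower peak, 65 of 138 (47.1%, 38.6% to 55.8%) were at most 600 bp long. Between pairs of narrower peaks this share was 101 of 511 (19.8%, 16.4% to 23.5%), and these intervals do not overlap. The most frequent class of gaps was 400 to 600 bp beside domains (32 gaps) and 600 to 800 bp between narrower peaks (143 gaps). Only 9 gaps beside domains were 600 to 800 bp long. Accordingly 4.75% of domains had an H3ac peak within 500 bp (3.58% to 6.15%) against 1.29% of narrower peaks (1.07% to 1.54%), while within 1000 bp the shares were 7.82% and 7.76%. How the peak caller joined neighbouring peaks is not given in the sources used here, and its part in these gaps was not tested. An Srf midpoint lay in 14 of the 138 gaps beside domains (10.1%, 5.66% to 16.4%) and in 40 of the 511 between narrower peaks (7.83%, 5.65% to 10.5%).

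**Figure D3:**
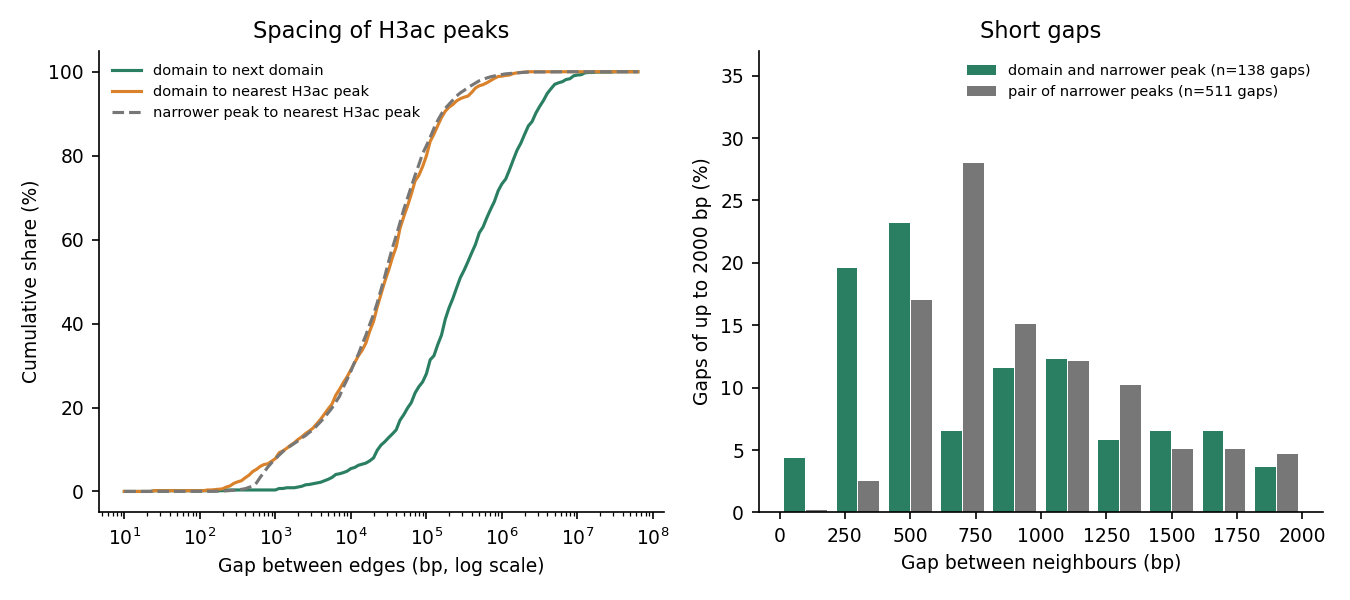
Left, cumulative share of peaks by gap (bp, log scale) for domains to the next domain, domains to the nearest H3ac peak, and narrower peaks to the nearest H3ac peak. The last 2 curves nearly coincide, with medians of 28011.5 and 26815 bp. Right, gaps of up to 2000 bp in classes of 200 bp, as a share of the 138 gaps between a domain and a narrower peak and of the 511 gaps between narrower peaks.

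Srf peaks overlapped 117 of the 1138 domains, which is 10.3% (8.58% to 12.2%), beside 5.25% of all H3ac peaks. On either side of the width limit the shares were close. They were 6.55% (5.04% to 8.35%) at 500 to under 1000 bp and 6.17% (3.50% to 9.98%) at 1000 to under 1200 bp. Of the 117 domains, 105 carried 1 Srf peak, 10 carried 2 and 2 carried 3. The 131 Srf peaks involved were 5.98% of the Srf list (5.03% to 7.06%) and 21.6% of the 606 Srf peaks on any H3ac peak, which in turn were 27.7% of that list. Their median width was 162 bp, and that of the other Srf peaks 180 bp. The 1021 domains without overlap were mostly far from Srf: 8 had an Srf peak within 500 bp, and 79 had one farther off but within 10000 bp. For 441 of the 1021 (43.2%) the gap was over 100000 and up to 1000000 bp, and for 204 (19.98%) it was longer. With the 8 close ones added, 10.98% of the 1138 domains (9.23% to 12.9%) had an Srf peak on them or within 500 bp, beside 10.6% of all H3ac peaks. Counted with close neighbours, the share of domains was thus near that of the whole list.

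Per length, domains carried fewer Srf peaks than the pool of narrower H3ac peaks did. Srf midpoints fell inside domains 121 times in 1838.269 kb, or 0.0658 per kb. In narrower H3ac peaks they fell 200 times in 2182.76 kb, or 0.0916 per kb. The ratio was 0.718 (exact conditional interval 0.568 to 0.905). It was 0.652 (0.483 to 0.872) outside and 0.584 (0.392 to 0.864) inside the 34 dense bins, which are the 1-Mb bins that held 8 or more Srf peaks. H3ac peaks under 250 bp had 0.104 per kb (0.0853 to 0.126) over all bins. Those of 250 to under 500 bp had 0.0850 (0.0613 to 0.115), and those of 500 to under 1000 bp 0.0771 (0.0574 to 0.101). Except under 250 bp, these intervals overlap that of the domains, 0.0546 to 0.0786. At 500 to under 1000 bp, the value outside the dense bins was 0.0712, beside 0.0452 in domains. In the dense bins it was 0.140, beside 0.200 in domains. The higher share of domains with an Srf peak thus stands beside a lower number per kb than in the pool of narrower peaks. The part of peak length in that share was not tested.

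Among the domains, the share that overlapped an Srf peak was highest in the widest, and so was the number of Srf midpoints per kb. Outside the dense bins the number per kb did not rise with width, but those bins were set by their Srf count. The share with an Srf peak was 6.17% from 1000 to under 1200 bp (3.50% to 9.98%), 8.73% from there to 1500 bp, 11.8% from there to 2000 bp and 11.7% from there to 3000 bp. It was 38.5% (20.2% to 59.4%) for the 26 domains of 3000 bp or more, 10 of which had an Srf peak. Domains with Srf had a median width of 1687 bp and those without 1477 bp. In the dense bins, from the narrowest class to the widest, the 5 shares were 11.1%, 17.2%, 40%, 30.6% and 77.8%, the last being 7 of 9 domains. Outside them the first 4 classes lay closer together, at 5.78%, 7.92%, 8.20% and 6.94%, and the widest gave 3 of 17 (17.6%, interval 3.80% to 43.4%). Only 1 Srf midpoint lay inside these 17 domains. Over all bins, Srf midpoints per kb were 0.0562, 0.0606, 0.0702, 0.0555 and 0.132 from the narrowest class to the widest. The interval of the widest class, 0.0703 to 0.226 from 13 midpoints, overlaps those of the others. Srf midpoints per kb outside the dense bins were 0.0527, 0.0565, 0.0460, 0.0301 and 0.0155 from the narrowest class to the widest, the last with an interval of 0.000393 to 0.0866. In the dense bins they were 0.1004, 0.1035, 0.260, 0.157 and 0.352. The bins were split by their number of Srf peaks, which by itself lowers the values outside the dense ones. The split therefore cannot tell whether the number per kb changes with width. The difference between the 2 sets of bins was not tested.

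The dense bins held 132 of the domains, and 41 of them (31.1%, 23.3% to 39.7%) overlapped an Srf peak, against 76 of the 1006 others (7.55%, 6.00% to 9.36%). These bins were picked for many Srf peaks, which by itself raises the share. Narrower H3ac peaks showed the same split, with 16.0% (13.5% to 18.9%) in dense bins and 3.34% (2.97% to 3.74%) elsewhere. On chromosome 8, 24 of 105 domains overlapped an Srf peak (22.9%, 15.2% to 32.1%), against 9.003% (7.33% to 10.9%) on the other chromosomes together. All but 1 of these 24 lay in dense bins, where the share was 23 of 68. In the other bins of chromosome 8 it was 1 of 37 (2.70%, 0.0684% to 14.2%). Chromosome 14 followed with 5 of 32 (15.6%) and chromosome 5 with 12 of 81 (14.8%), both with intervals that overlap that of chromosome 8. No Srf peak lay on the 35 domains of chromosome 10 or on the 23 of chromosome 18. By the exact interval these counts of 0 allow shares of up to 10.003% and 14.8%, and by 3 counts of the total up to 8.57% and 13.04%. Chromosome 3, with 62 domains, had 1 with an Srf peak.

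Inside the domains, Srf peaks lay towards the middle. Of the 131 overlapping Srf peaks, 116 were wholly inside their domain and 15 crossed an end. The midpoints of 121 were inside, in 108 domains, and 89 of these midpoints fell in the middle 50% of the domain's length. That is 73.6% (64.8% to 81.2%), where even placement gives 50% by construction. Only 6 midpoints were in the first 10% of the length and 1 in the last 10%, against 41 between 40% and 60% of it. In genome order 62 lay before the midpoint of their domain and 59 at or past it. The median distance between the midpoints of an Srf peak and its domain was 320 bp (quartiles 140.75 and 513.5 bp). The middle share was 81.6% (68.0% to 91.2%) of 49 midpoints in dense bins and 68.1% (56.0% to 78.6%) of 72 elsewhere. Domains of 2000 bp or more gave 75% and narrower domains 72.9%.

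Read from the nearest end of a domain, the number of Srf midpoints per kb was highest more than 300 bp inside, but did not rise evenly across the end. In steps of 100 bp it was 0.0395 per kb just outside (9 midpoints, 0.0181 to 0.0751). From 0 to 300 bp inside, the 3 steps gave 0.0264, 0.0308 and 0.0308. At 500 to 1000 bp outside the end it was 0.0123 per kb (14 midpoints, exact Poisson interval 0.00673 to 0.0206). In the 500 bp just outside it was 0.0176 per kb (20 midpoints, 0.0107 to 0.0271), and in the first 300 bp inside 0.0293 per kb (20 midpoints, 0.0179 to 0.0452). These 3 intervals overlap, but the windows differ in length, and a step at the end of a domain was not tested. Farther out, at 1000 to 2000 bp, the value was 0.00703 per kb (16 midpoints, 0.00402 to 0.0114). From 300 to 500 bp inside it was 0.0703 per kb (32 midpoints, 0.0481 to 0.0992), and beyond 500 bp it was 0.0985 per kb (69 midpoints, 0.0767 to 0.125). Over the whole length, the number per kb inside was 3.75 times that in the 500 bp outside (exact conditional interval 2.32 to 6.35). The ratio was 2.50 (1.46 to 4.60) with 250 bp outside and 4.41 (2.99 to 6.65) with 1000 bp.

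The H3ac peaks under 500 bp had another layout around their midpoints than the domains, and those of 500 to under 1000 bp did not show it. Within 100 bp of a midpoint, domains had 0.114 Srf midpoints per kb (26 midpoints, 0.0746 to 0.167), and H3ac peaks of 500 to under 1000 bp had 0.131 (24 midpoints, 0.0839 to 0.195). H3ac peaks under 500 bp had 0.102 there (171 midpoints, 0.0871 to 0.118) and more at 200 to 300 bp, 0.170 (286 midpoints, 0.151 to 0.191). A peak under 500 bp ends less than 250 bp from its midpoint, so many of these Srf midpoints lay beside it. At 200 to 300 bp domains had 0.0747 (17 midpoints, 0.0435 to 0.120) and peaks of 500 to under 1000 bp had 0.0600 (11 midpoints, 0.02997 to 0.107), both below the interval of the peaks under 500 bp. Srf midpoints at this distance were thus inside domains but mostly near or past the ends of the narrowest peaks.

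**Figure D4:**
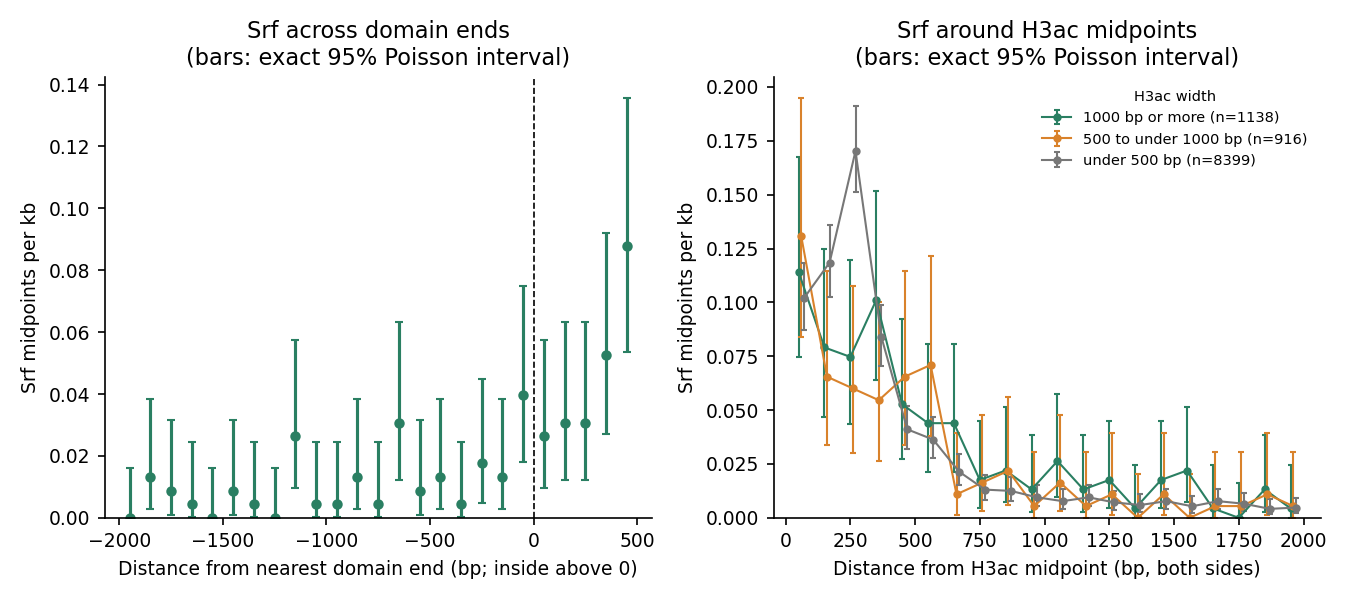
Left, Srf midpoints per kb by distance from the nearest end of a broad domain (bp, negative outside, positive inside), in steps of 100 bp with exact 95% Poisson intervals. The value rose to 0.0879 per kb at 400 to 500 bp inside. Right, Srf midpoints per kb by distance from the H3ac midpoint (bp) for H3ac peaks of 1000 bp or more, of 500 to under 1000 bp and under 500 bp. Peaks under 500 bp were highest at 200 to 300 bp, with 0.170 per kb.

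Of the 12 domains with 2 or 3 Srf peaks, which are part of the counts above, 9 lay in dense bins and 6 on chromosome 8. Not all of their Srf midpoints lay in the middle 50% of the length. The smallest distance between Srf midpoints on the same domain ranged from 131.5 to 1191 bp, with a median of 316.5 bp. With 3 Srf peaks, the domain on chromosome 12 from 8504841 to 8507876 (3035 bp) had them at 34.0%, 49.6% and 60.2% of its length. They were 132, 271 and 139 bp wide, and the widest of the 3 lay nearly at the centre, from 8506210 to 8506481. It had no H3ac peak within 10000 bp on either side, the nearest being 10212 bp away.

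The other domain with 3 Srf peaks, on chromosome 8 from 127176247 to 127179706 (3459 bp), had them at 19.3%, 42.5% and 48.4% of its length. In contrast to the former it was flanked on both sides, by an H3ac peak of 873 bp at a gap of 150 bp and by one of 80 bp at 956 bp. The next broad domain was 2410 bp away.

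The next 3 domains by Srf peaks were chosen among those with 2 by their number per kb. The domain on chromosome 17 from 13744218 to 13745307 (1089 bp) had Srf peaks at 20.6% and 69.1% of its length, the second of them 550 bp wide. On chromosome 1 the domain from 95374708 to 95375893 (1185 bp) had its Srf peaks at 64.6% and 77.8%, 156 bp apart. On the X chromosome the domain from 166434582 to 166436120 (1538 bp) was nearly filled by Srf peaks of 533 and 700 bp. The map of these domains shows further Srf peaks on either side of the domains on chromosomes 17 and X.

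**Figure D5:**
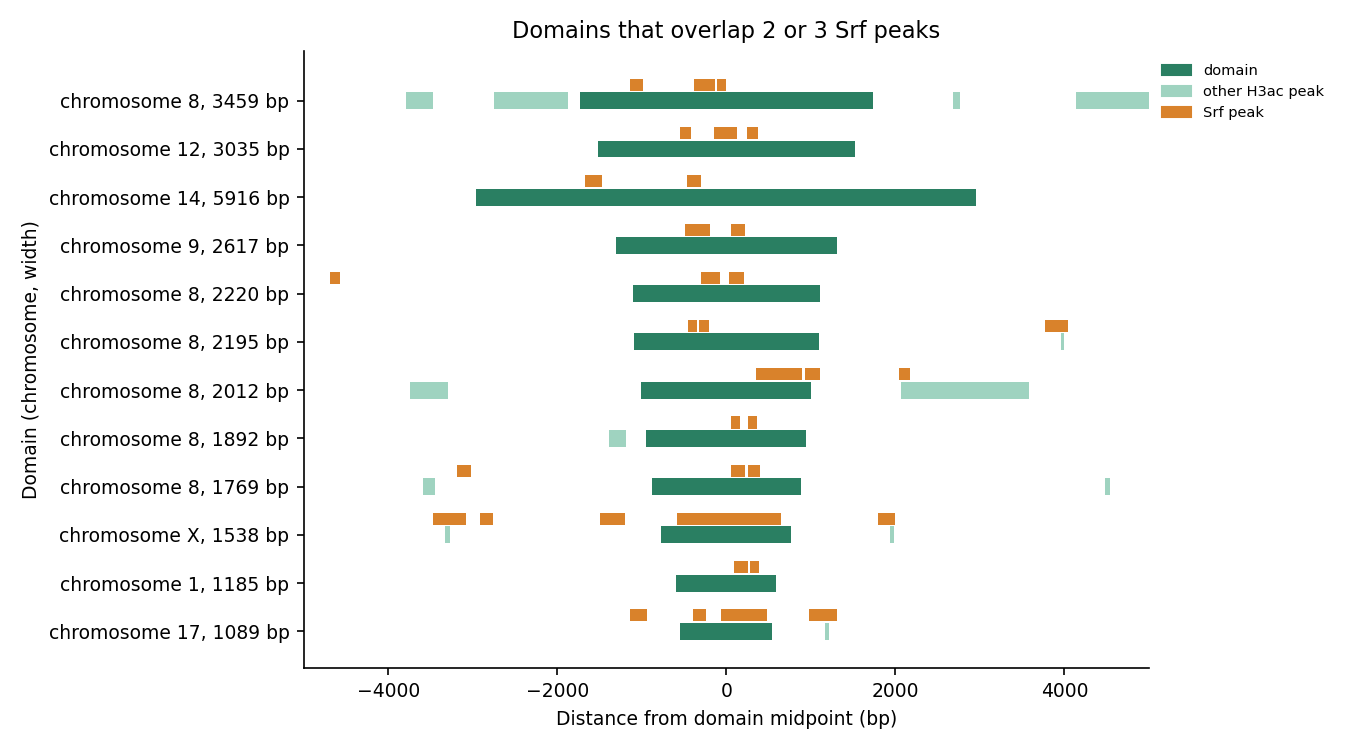
The 12 broad domains that overlap 2 or 3 Srf peaks, drawn to scale by distance from the domain midpoint (bp), with the domain in dark green, other H3ac peaks in light green and Srf peaks in orange above them. Rows are ordered by the number of Srf peaks and then by width. Most Srf peaks lie well inside the ends of the domain, and 1 midpoint, on the domain of 2012 bp on chromosome 8, lies past its end.

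The 10 widest domains differed in their company. On 3 of them there was an Srf peak. The domain on chromosome 14 from 26275907 to 26281823 (5916 bp) had 2 Srf peaks, at 23.4% and 43.5% of its length. It lay in a dense bin with 8 domains from 26 to 27 Mb, and the next domain was 18327 bp away. On chromosome 15 the domain from 74499820 to 74503916 (4096 bp) met its Srf peak only at the end, with the Srf midpoint 6 bp past it. On chromosome 14 the domain from 55581542 to 55585502 (3960 bp) did likewise, with the Srf midpoint 97 bp past the end. Of these 3, only the first had an Srf peak in its body.

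The other 7 of the 10 widest had no Srf peak. The widest, on chromosome 7 from 108074333 to 108080866 (6533 bp), was 62269 bp from the nearest H3ac peak, a broad domain of 1008 bp. On chromosome 12 the domain from 8303578 to 8309594 (6016 bp) was 1148 bp from a narrower peak of 176 bp. The domain on chromosome 3 from 137727851 to 137733808 (5957 bp) stood alone for 72710 bp. That on chromosome 16 from 34920919 to 34924929 (4010 bp) did so for 70923 bp, with an Srf peak at 18957 bp. Close flanks were found on chromosome 17 beside the domain from 34256352 to 34260103 (3751 bp), where a narrower peak of 418 bp lay at 480 bp. On chromosome 4 the domain from 140976841 to 140980441 (3600 bp) was 252 bp from a narrower peak of 604 bp. The last of the 10, on chromosome 7 from 148660095 to 148663611 (3516 bp), had an Srf peak 3144 bp away, nearer than its nearest H3ac peak at 4417 bp. Great width was thus found both in solitary domains and in domains with close flanks.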

How the data were processed

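Peaks of 1 H3ac and 1 Srf library from HL-1 cells, sequenced on an Illumina Genome Analyzer, were used as deposited. The deposited columns, per the file headers, are identifier, chromosome, start and end, without score or count. Per the submitters' processing notes the build was mm9. For aligner, peak caller, control and filters, the sources used here give no entry, and the depth is unknown. Width was end minus start. Overlap was at least 1 shared position, with end positions included, and gaps ran between nearest edges. Not counting touching ends left the share of domains with an Srf peak at 10.3%. Shares have Clopper-Pearson intervals (95%), counts per kb Poisson intervals, ratios conditional binomial intervals, and medians intervals from binomial ranks. No test was run, since there is 1 library per antibody. Domains and comparisons were chosen with earlier results of these data known. Regions named were the 10 widest domains, the 5 with the most Srf peaks (ties by number per kb), the 3 longest runs with gaps of at most 2000 bp, the 3 bins of 1 Mb with the most domains, the 3 domains farthest from another and the 3 peaks on each side of each limit; others named singly, such as the closest pair, were chosen after their values were seen. No gene or sequence was assigned, because the gene table at hand follows another assembly. Tools were scipy 1.17.1, matplotlib 3.10.9, numpy 2.4.6 and pandas 2.3.3 in Python 3.11.15, and the steps were tested on simulated peaks.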

Additional observations from a re-analysis of the deposited data

How the results depend on the processing

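Each alternative was planned, and 32 of 47 values stayed in the reported interval or, for the number of domains, within 1.5 times. No paired analysis was possible because there was 1 library per antibody. A minimum width of 2000 bp gave 206 domains, 15.0% with an Srf peak, 1.83% of Srf peaks in a domain, a median gap of 1361783 bp to the next domain and 18.9% with a narrower H3ac peak within 2000 bp. A minimum of 750 bp gave a median gap of 194613 bp and 7.12% of Srf peaks in a domain. Without a limit on the start, 7.49% of Srf peaks lay in a domain, since 7 peaks at chromosome starts were added, 6 of them with Srf peaks. Without the dense bins, 7.55% of domains had an Srf peak, 4.97% of Srf peaks lay in a domain, and the median gap was 367062 bp, all with fewer peaks counted. With the narrower part of the Srf list left out, 4.22% of domains had an Srf peak, and 4.47% of these Srf peaks lay in a domain. Fewer Srf peaks were counted, and the cause of either value was not tested. Flanks within 500 bp were found for 4.39% of domains and within 5000 bp for 17.8%, which follows from the distance. The middle placing of Srf midpoints and their ratio inside over outside stayed in the reported intervals under each alternative run. What read depth limits in these lists is unknown.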

Other observations

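The number at the end of an H3ac identifier, taken as a percentage of the highest number on its chromosome, differed with width. No source used here says what that number is. Domains of 3000 bp or more had a median place of 26.0% (quartiles 12.9% and 32.4%), and those of 2000 to under 3000 bp 42.7%. The median was 50.6% from 1500 to under 2000 bp, 61.2% from 1200 to under 1500 bp and 66.7% from 1000 to under 1200 bp. Below the limit the order turned, from 66.9% at 500 to under 1000 bp to 44.3% under 250 bp. Domains with an Srf peak had a median place of 38.3% (117 domains) and those without 55.9% (1021 domains). The former were also wider, with a median of 1687 bp against 1477 bp, and width and Srf overlap were not separated here.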
